A study of Mus musculus with 7 samples.

Results

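Sox5 and Sox6 were examined for active histone marks in mouse chondrocytes and dermal fibroblasts. Every peak that touched the gene body or the 100 kb on each side of it was taken from each of 6 peak lists, which gave 232 peaks of 190499 in all lists, and 2 genes of 22350 protein-coding genes. The lists were H3K27ac (acetylated lysine 27 of histone H3, a mark of active promoters and enhancers) in primary chondrocytes of rib cartilage (replicates 1 and 2), H3K4me2 (dimethylated lysine 4, found at promoters and enhancers, active or not) in the same cell type, H3K27ac in primary dermal fibroblasts of skin as a negative control, and H3K27ac in chondrocytes of WT and of E160Δ/Δ E308Δ/Δ mice. The mutants lack 2 enhancers upstream of Sox9 on both alleles, were made with CRISPR in C57BL/6J mice and were compared with WT littermates. Per the study's methods, chondrocytes and fibroblasts came from newborn mice of either sex and chondrocytes were used within a few passages, so that each list describes cultured cells. Each list was 1 library, and only chondrocyte H3K27ac had 2 replicates. No difference between groups could therefore be tested, and the intervals given below cover counting error only.

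Sox5 and Sox6 are the SoxD transcription factors of cartilage. They have a DNA-binding HMG box but no transactivation domain of their own, bind DNA as dimers through a coiled coil, and are known to act with Sox9 on enhancers of cartilage matrix genes, so that the 3 proteins are called the Sox trio. Sox9 is needed for expression of both genes in the developing cartilage. Both genes are very long and have several promoters.

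In mm9, Sox5 (ENSMUSG00000041540.9) covered chr6:143776945-144730497 on the minus strand and Sox6 covered chr7:122614858-123182258 on the minus strand. Distances below are in kb downstream of the most 5′ TSS (transcription start site) of a protein-coding transcript of the gene, with negative values upstream. Replicate 2 was on GRCm38 and was placed by distance from the TSS, since mm9 and GRCm38 differed by a constant offset in each window.

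The sequences below show the DNA under promoter and intron peaks described later. They are 250 bases upstream of the TSS at the highest-scoring WT promoter peak of each gene, and 300 bases around the WT summit in the introns with the highest replicate 1 scores among peaks that overlapped WT and H3K4me2 peaks and no fibroblast peak. The last is the only Sox5 region with a fibroblast peak. They were read from mm9 in the direction of transcription, and capitals mark the Sox core AACAAT on either strand.
Sox5 promoter, chr6:144158089-144158338, minus strand: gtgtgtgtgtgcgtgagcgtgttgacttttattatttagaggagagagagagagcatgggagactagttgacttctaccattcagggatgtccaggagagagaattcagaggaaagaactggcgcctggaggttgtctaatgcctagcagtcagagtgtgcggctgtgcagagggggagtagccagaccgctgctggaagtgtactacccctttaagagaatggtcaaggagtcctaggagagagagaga
Sox6 promoter, chr7:123174562-123174811, minus strand: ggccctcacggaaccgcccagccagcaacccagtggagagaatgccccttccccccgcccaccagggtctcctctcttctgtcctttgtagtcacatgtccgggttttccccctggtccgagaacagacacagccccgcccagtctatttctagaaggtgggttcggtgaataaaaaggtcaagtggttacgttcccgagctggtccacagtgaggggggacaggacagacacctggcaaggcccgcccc
Sox5 intron, 28.2 kb, chr6:144129703-144130002, minus strand: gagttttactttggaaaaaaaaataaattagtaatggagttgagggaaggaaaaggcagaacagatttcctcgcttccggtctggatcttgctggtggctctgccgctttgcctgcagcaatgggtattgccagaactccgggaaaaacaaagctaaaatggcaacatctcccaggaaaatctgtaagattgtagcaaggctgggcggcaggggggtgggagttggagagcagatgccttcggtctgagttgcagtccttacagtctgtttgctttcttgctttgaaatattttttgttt
Sox5 intron, 152 kb, chr6:144004917-144005216, minus strand: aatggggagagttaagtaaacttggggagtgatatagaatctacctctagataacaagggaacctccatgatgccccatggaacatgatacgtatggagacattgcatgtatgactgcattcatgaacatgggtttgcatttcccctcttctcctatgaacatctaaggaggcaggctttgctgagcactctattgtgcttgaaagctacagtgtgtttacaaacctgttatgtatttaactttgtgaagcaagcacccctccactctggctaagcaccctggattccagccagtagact
Sox5 intron, 43.3 kb, chr6:144114732-144115031, minus strand: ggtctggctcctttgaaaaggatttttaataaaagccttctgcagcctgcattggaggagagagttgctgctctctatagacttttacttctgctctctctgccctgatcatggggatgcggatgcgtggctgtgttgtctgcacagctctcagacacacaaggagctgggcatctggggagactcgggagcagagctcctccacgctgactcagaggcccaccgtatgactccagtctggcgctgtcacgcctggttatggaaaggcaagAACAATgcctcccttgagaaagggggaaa
Sox6 intron, 414 kb, chr7:122768960-122769259, minus strand: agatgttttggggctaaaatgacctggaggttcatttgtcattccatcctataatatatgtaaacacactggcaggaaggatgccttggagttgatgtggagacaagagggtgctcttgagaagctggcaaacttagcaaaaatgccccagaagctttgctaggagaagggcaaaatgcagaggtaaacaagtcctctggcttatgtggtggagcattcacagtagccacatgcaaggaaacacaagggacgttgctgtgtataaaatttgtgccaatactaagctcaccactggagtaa
Sox6 intron, 479 kb, chr7:122702231-122702530, minus strand: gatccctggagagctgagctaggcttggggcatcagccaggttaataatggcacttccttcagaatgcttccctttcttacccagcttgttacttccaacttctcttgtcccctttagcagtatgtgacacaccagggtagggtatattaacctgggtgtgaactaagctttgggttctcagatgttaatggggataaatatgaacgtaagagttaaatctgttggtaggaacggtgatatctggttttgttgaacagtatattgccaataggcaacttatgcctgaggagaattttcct
Sox5 intron, fibroblast peak, chr6:144023905-144024204, minus strand: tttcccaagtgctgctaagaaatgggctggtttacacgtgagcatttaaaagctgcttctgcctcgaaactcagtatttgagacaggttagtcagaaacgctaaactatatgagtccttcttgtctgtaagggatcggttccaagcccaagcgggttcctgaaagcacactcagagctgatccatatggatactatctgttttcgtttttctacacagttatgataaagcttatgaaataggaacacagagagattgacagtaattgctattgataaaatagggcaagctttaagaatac

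Only the Sox5 region at 43.3 kb held the core among these 8 sequences. The windows at the inner Sox6 promoter (chr7:122967942-122968241) and at the Sox6 fibroblast peak (chr7:123236911-123237210), not printed here, each held 1 core as well. Across all WT peaks of the window, the 300 bases around the summit held AACAAT on either strand at 5 of 20 Sox5 peaks and 4 of 25 Sox6 peaks, against 9.46% of 33369 WT peaks and 12.2% of 21075 WT peaks over 1 kb from a TSS of a protein-coding gene. A facing pair of cores (ACAAT, then 3, 4 or 5 bases of any kind, then ATTGT, which reads the same on both strands) was found at 0 of these 45 windows, and at 14 (0.042%) of all WT windows. A match is a match of letters and was not a measure of binding.

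The cell types were checked by promoter peaks (a peak within 1 kb of any TSS of the gene) at marker genes. Of 8 chondrocyte markers, 5 were marked in replicate 1, 7 in replicate 2, WT and the deletion list, 6 in H3K4me2, and 1 (Sox9) in fibroblasts. Of 7 dermal fibroblast markers, 4 were marked in fibroblasts (Col1a2, Twist2, Dpt and Pdgfra) and 3 to 6 in the chondrocyte H3K27ac lists, of which Dpt was marked in fibroblasts and in no other list. Col1a1, Col3a1 and Prrx1 had a promoter peak in chondrocyte lists and none in fibroblasts. A promoter peak was found at 47.3% of protein-coding genes in fibroblasts and at 44.3 to 49.6% in the chondrocyte H3K27ac lists, so that 4 of 7 markers is near the share of all genes. The promoters of Myod1, Pecam1, Ptprc and Krt14, markers of muscle, endothelial, blood and skin epithelial cells, were marked in 0 lists. The peaks covering the deleted enhancers served as a check of genotype: WT, replicate 1 and H3K4me2 each had a peak at E308 and at E160, and the deletion list had 0 at either. The fibroblast list also had a peak at each, ranked in the top 66.7% and 46.3% of its list. Rank is given here as the top percent of a list by score, so that a lower value is a stronger peak.

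The numbers of peaks differed most between the fibroblast list and the rest. At Sox5, replicate 1 held 16 peaks, replicate 2 held 15, WT 20, the deletion list 11, H3K4me2 39 and fibroblasts 1. At Sox6 the same lists held 23, 15, 25, 13, 53 and 1. The peaks covered 17.6 kb of the Sox5 window in replicate 1 and 0.436 kb in fibroblasts, and 40.5 kb of the Sox6 window in replicate 1 and 1.47 kb in fibroblasts. In every chondrocyte list most peaks of Sox5 lay in introns (16 of 16 in replicate 1, 18 of 20 in WT). Sox6 had 16 intron peaks in both replicate 1 and WT, and more flank peaks than Sox5 (6 in each). The gene body made up 954 of the 1154 kb of the Sox5 window and 567 of the 767 kb of the Sox6 window. Intron here means any peak of the gene body outside promoters, including a few that touch an exon.

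**Figure D1:**
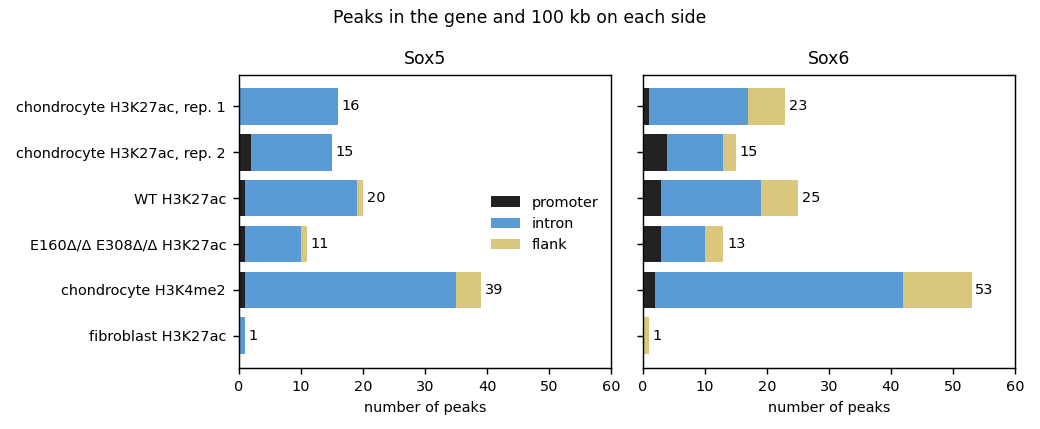
Number of peaks (x axis) in each of the 6 lists (rows) at Sox5 and Sox6, split into promoter, intron and flank. The chondrocyte lists have 11 to 53 peaks at each gene and the fibroblast list has 1.

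Per length, Sox5 lay near the middle of all loci in chondrocyte acetylation and Sox6 above it. Replicate 1 had 1.39 peaks per 100 kb at Sox5, and 23 peaks in 767 kb at Sox6, against a median of 1.58 over 22350 protein-coding loci measured the same way, and 55.5% and 24.0% of loci had as high a density or higher. Fibroblasts had 0.087 and 0.13 peaks per 100 kb against a median of 1.35, and 80.3% and 80.2% of loci had as high a density or higher. A limit of 15 or more peaks in replicate 1, chosen after the values were seen, was met by 379 loci. Of these, 4 (1.06%) had at most 1 fibroblast peak, namely Gpr126, Msi2, Sox5 and Sox6. The limit of 1 fibroblast peak equals the count at Sox5 and at Sox6, so that both pass it by construction. The median of these 379 loci was 11 fibroblast peaks. The loci were picked by a high replicate 1 count, which Sox5 and Sox6 have. They were not matched for length or number of promoter peaks, so that neither value is a test.

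At the promoters, the main coding promoter of Sox5 carried a broad acetylated domain. In WT it was 9073 bp wide (chr6:144149354-144158426) with a fold enrichment of 26.2 and ranked in the top 11.5% of the list, and it was the strongest WT peak of the Sox5 window. Replicate 2 had 2 promoter peaks there, of 2896 and 3123 bp, in the top 24.2% and 47.6%. The deletion list had a peak of 7228 bp in the top 20.5%. Replicate 1, H3K4me2 and fibroblasts had 0 peaks within this domain.

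Sox6 had 3 acetylated promoter regions in WT. The outer pair lay at the 5′ end, at chr7:123172968-123179827 (6860 bp, fold enrichment 35.1, top 3.16%, the strongest WT peak at either gene) and chr7:123180024-123183995 (3972 bp, fold enrichment 11.8, top 26.8%). The former also covers the TSS of 1110006G14Rik, so that the peak cannot be assigned to Sox6 alone. The third, 214 kb downstream, lay at the TSS of a shorter coding transcript (chr7:122967024-122970377, 3354 bp, top 21.1%). Replicate 2 had peaks at all of these promoters. In replicate 1 the inner promoter was the second strongest peak of the Sox6 window (4102 bp, top 2.24%), and H3K4me2 covered it with 5320 bp (top 34.3%).

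As at Sox5, the outer Sox6 promoters had 0 peaks in replicate 1, H3K4me2 and fibroblasts. These are the 3 lists deposited as positions with a score and no fold enrichment. Of 368 WT peaks at least 5 kb wide, 13.3% had no peak in replicate 1, 25.5% none in H3K4me2 and 19.8% none in fibroblasts. An absent fibroblast peak at these 2 promoters therefore cannot be told apart from a gap that the chondrocyte lists of the same format share. At the inner Sox6 promoter, replicate 1 and H3K4me2 had a peak and fibroblasts had none, the nearest fibroblast peak lying 266 kb away. Col1a1 likewise had a promoter peak in replicate 1 and H3K4me2 and none in fibroblasts. The study, however, reports peaks at Col1a1 in dermal fibroblasts. Whether the fibroblast list missed a mark at the inner Sox6 promoter was not tested.

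Other annotated starts were marked in few lists. The far 5′ TSS of Sox5, 572 kb upstream and used by transcripts without an annotated coding sequence, had an H3K4me2 peak of 2631 bp in the top 3.22%, the strongest H3K4me2 peak of the Sox5 window, and 0 H3K27ac peaks in any list. The short coding Sox5 transcripts starting at 262 kb had 0 promoter peaks in any list. At Sox6 the TSS at 43.7 kb had 0 peaks in any list and the TSS at 193 kb had an H3K4me2 peak of 1525 bp (top 35.4%) and 0 H3K27ac peaks.

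The acetylated introns were unevenly spread. In Sox5, the 572 kb between the far 5′ TSS and the main coding promoter held 0 H3K27ac peaks outside promoters in replicate 2, WT and the deletion list and 2 in replicate 1, whereas H3K4me2 had 15. The 381 kb from the main promoter to the 3′ end held 14, 13, 18 and 9 peaks in replicate 1, replicate 2, WT and the deletion list, and 1 in fibroblasts. In Sox6, the 185 kb from the outer promoters to the TSS at 193 kb held 0 H3K27ac peaks in all 5 acetylation lists and 11 H3K4me2 peaks. Between that TSS and the inner promoter at 214 kb, replicate 1 had a weak peak at 194 kb (top 87.7%). The 375 kb from the TSS at 193 kb to the 3′ end held, outside promoters, 16, 9, 16 and 7 peaks in the 4 chondrocyte H3K27ac lists and 0 in fibroblasts. These boundaries were drawn after the peaks were seen, and no read depth is known for any list.

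**Figure D2:**
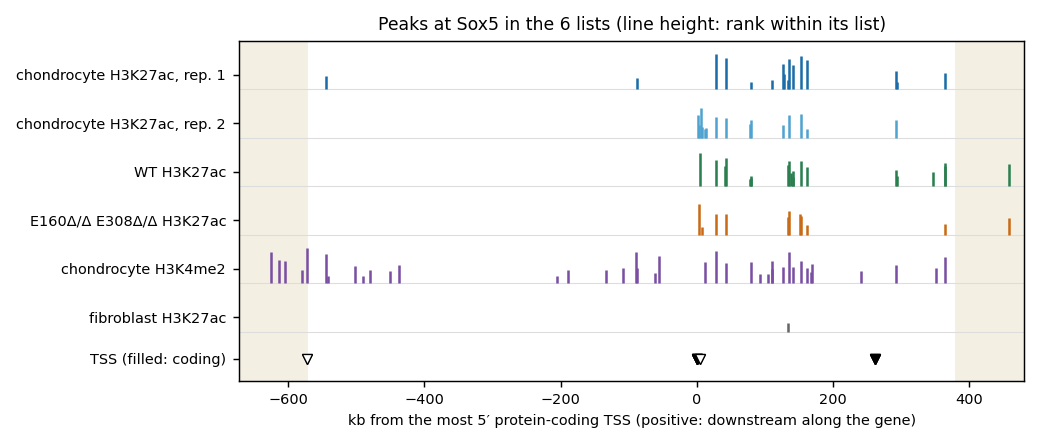
Peaks at Sox5 by distance in kb from the most 5′ coding TSS (x axis), in the 6 lists (rows). The height of a line is the rank of the peak in its list, shaded areas are the 100 kb flanks, and triangles are TSSs. Apart from 2 replicate 1 peaks upstream, chondrocyte acetylation lies at or downstream of the main promoter, H3K4me2 lies on both sides of it, and fibroblasts have 1 peak, at 134 kb.

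**Figure D3:**
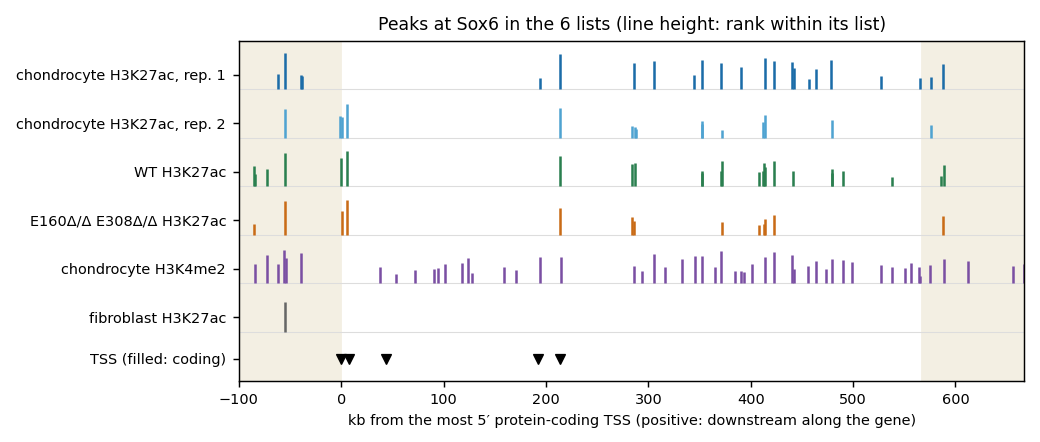
Peaks at Sox6 drawn as for Sox5, with distance in kb on the x axis and the 6 lists in rows. The 185 kb from the outer promoters to the TSS at 193 kb holds H3K4me2 peaks and 0 H3K27ac peaks, and the fibroblast peak lies in the upstream flank.

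Peaks of the 5 acetylation lists under 1 kb apart were merged into 19 regions at Sox5 and 28 at Sox6. At Sox5, 5 regions had a peak in all 4 chondrocyte H3K27ac lists and 7 in only 1 of them. At Sox6 these numbers were 5 and 14. Of all merged regions, 15 of 19 at Sox5 and 25 of 28 at Sox6 had an H3K4me2 peak. Every region with 4 lists had one by construction, since all replicate 1 peaks of both windows overlapped an H3K4me2 peak.

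By replicate 1 score, the strongest of the 4-list regions at Sox5 lay 28.2 kb into the gene (chr6:144129113-144130720). It was in the top 2.83% of replicate 1, 54.1% of replicate 2, 33.7% of WT and 51.7% of the deletion list, and H3K4me2 covered it in the top 12.9%. The region at 152 kb (chr6:144004195-144006992) ranked in the top 11.0%, 42.6%, 39.6% and 51.7% of the same lists. The region at 43.3 kb, which holds the Sox core shown above, ranked in the top 16.4%, 57.4%, 29.1% and 51.6%. These 3 had the highest replicate 1 scores at Sox5 and 0 fibroblast peaks. The order differed between lists: WT ranked the region at 43.3 kb highest of the 4-list regions, replicate 2 the region at 152 kb, and the deletion list the region at 135 kb (top 43.5%).

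At Sox6 the strongest replicate 1 peak of the window (top 1.10%) was not in the gene. It lay 54.9 kb upstream at the shared promoter of 1110004F10Rik and 1700003G18Rik, and was marked in all 6 lists, in the top 24.8% of replicate 2, 10.3% of WT, 9.79% of the deletion list and 9.68% of H3K4me2. Within the gene, the strongest replicate 1 peaks without a fibroblast peak, beside the inner promoter, were at 414 kb (chr7:122766453-122770987, top 18.5%) and 479 kb (chr7:122701974-122704782, top 22.9%). The former was in all 4 chondrocyte H3K27ac lists, and the latter in replicate 1, replicate 2 and WT (best WT rank 65.0%). In WT the Sox6 intron peaks at 423 kb and 372 kb ranked higher, both in the top 39.1%, and neither had a fibroblast peak. The strongest intron peaks of H3K4me2 were at 371 kb (top 13.4%) and 423 kb (top 17.3%), and each overlapped replicate 1, WT and deletion peaks.

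**Figure D4:**
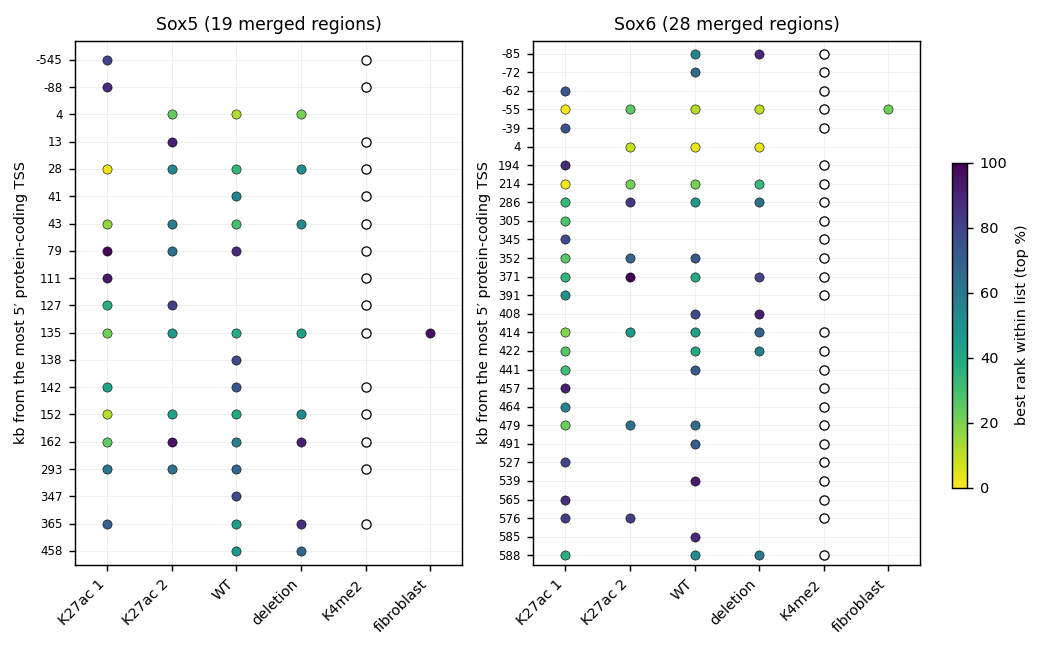
Merged acetylated regions at Sox5 (19) and Sox6 (28), one row each, labelled by kb from the most 5′ coding TSS. A filled circle is a peak in that list coloured by its best rank (top percent), and an open circle is an overlapping H3K4me2 peak. Each gene has 1 region with a fibroblast peak.

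The replicates were set against each other by distance from the TSS. Of the replicate 2 peaks, 9 of 15 at Sox5 and 11 of 15 at Sox6 overlapped a replicate 1 peak. In the other direction 8 of 16 and 7 of 23 did. Shares over whole lists were not computed for replicate 2, which is on another build, so its counts are given without a background. The replicate 2 peaks of Sox5 without a replicate 1 peak included both promoter peaks. Replicate 2 overlapped WT at 11 of 15 and 14 of 15 peaks. Replicate 1 overlapped WT at 11 of 16 Sox5 peaks and 10 of 23 Sox6 peaks (68.8% and 43.5%), against 75.4% of all replicate 1 peaks and 60.4% of those away from a TSS.

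Fibroblasts served as the study's negative control, and the chondrocyte lists were compared with them peak by peak. In replicate 1, 15 of 16 Sox5 peaks (93.8%, 95% Clopper-Pearson interval 69.8 to 99.8%) and 22 of 23 Sox6 peaks (95.7%, 78.1 to 99.9%) had no fibroblast peak. Over the whole replicate 1 list this share was 48.3%, and over peaks more than 1 kb from a TSS of a protein-coding gene it was 74.1%. The Sox6 interval lay above the latter value, also outside the promoters of Sox6 (21 of 22, 77.2 to 99.9%), and the Sox5 interval held it. Those 22 peaks include the one at the promoter of the neighbouring genes 1110004F10Rik and 1700003G18Rik. The shares of both genes were close, and Sox5 had fewer peaks. The intervals take peaks of 1 locus in 1 library as independent, so that this is not a test and does not set Sox6 apart from Sox5. At Sox6 the lower limit was 61.5% with the higher-scoring 50% of each list and 69.8% with equal numbers of peaks. It was 68.1% with replicate 2 in place of replicate 1. With the other alternatives it stayed above 74.1%, a share not recomputed for any of them. WT gave 19 of 20 and 24 of 25 peaks against 56.4% of all WT peaks. Outside the promoters of Sox5 and Sox6 it gave 18 of 19 and 21 of 22, against 76.9% of WT peaks away from a TSS. The deletion list gave 10 of 11 and 12 of 13 against 45.7% of all its peaks. Outside the promoters it gave 9 of 10 at each gene, against 70.4% of its peaks away from a TSS. Replicate 2 gave 15 of 15 and 14 of 15. Replicate 2 is on another build, so its share over the whole list was not computed and these counts cannot be set against it.

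The fibroblast peak at Sox5 was a weak one. It lay at 134 kb (chr6:144023853-144024288, 436 bp), in the top 95.5% of the fibroblast list, and overlapped peaks of replicate 1 (top 93.1%), WT (top 51.2%) and the deletion list (top 64.4%). The stronger replicate 1 peak of the same merged region (top 22.1%) did not overlap it. The fibroblast peak at Sox6 was at the promoter of the neighbouring genes 1110004F10Rik and 1700003G18Rik (1465 bp, top 21.5%), so that the Sox6 gene body had 0 fibroblast peaks. The 1 fibroblast peak of each window had a replicate 1 peak (0 of 1 without, interval 0 to 97.5%). Of all fibroblast peaks 37.6% had none, and of those away from a TSS 60.1%. The interval held both values.

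H3K4me2 covered more of both loci than H3K27ac. All 16 Sox5 and all 23 Sox6 peaks of replicate 1 overlapped an H3K4me2 peak (intervals 79.4 to 100% and 85.2 to 100%), against 90.2% of all replicate 1 peaks and 86.3% of those away from a TSS. In WT 15 of 20 and 21 of 25 did, against 79.4% of all WT peaks and 70.7% of those away from a TSS. In the other direction, 13 of 39 H3K4me2 peaks at Sox5 (33.3%, 19.1 to 50.2%) and 27 of 53 at Sox6 (50.9%, 36.8 to 64.9%) overlapped a chondrocyte H3K27ac peak on mm9, against 46.0% of all H3K4me2 peaks and 34.1% of those away from a TSS. With replicate 1 alone the counts were 13 and 23, against 35.2% of all H3K4me2 peaks and 24.6% of those away from a TSS. With replicate 2 counted as well, H3K4me2 peaks with acetylation ranked higher than those without. Median ranks were 51.2% and 78.1% at Sox5 and 40.2% and 68.2% at Sox6, and were not computed over the whole list. By the same count, 25 H3K4me2 peaks of Sox5 and 26 of Sox6 had no chondrocyte H3K27ac peak, a share not computed over the whole list. The 1 fibroblast peak of each window lay within a replicate 1 peak, so that 0 of these H3K4me2 peaks could overlap it. The strongest of these at Sox5 after the far 5′ promoter was 1276 bp wide and lay in the upstream flank, 625 kb from the coding TSS.

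WT and E160Δ/Δ E308Δ/Δ chondrocytes were compared at both genes, since the deleted enhancers belong to Sox9, the partner of Sox5 and Sox6. Fewer peaks were called in the deletion list at both genes. At Sox5 11 of 20 WT peaks (55%, 31.5 to 76.9%) and at Sox6 12 of 25 (48%, 27.8 to 68.7%) had no deletion peak, against 37.2% of all WT peaks and 50.9% of WT peaks away from a TSS. Both intervals held both values. All 11 and all 13 deletion peaks had a WT peak. Deletion peaks without a WT peak numbered 0 at either gene (upper limits of the interval 28.5% and 24.7%), against 1.12% of all deletion peaks and 1.84% of those away from a TSS.

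The WT peaks without a deletion peak were mostly weak ones. In the higher-scoring 50% of the WT list, 1 of 7 peaks at Sox5 and 0 of 9 at Sox6 had none, against 2.56% of such peaks over the genome and 4.55% of those away from a TSS. In the lower-scoring 50%, 10 of 13 and 12 of 16 had none, against 72.4% and 73.5%. The 1 stronger peak was in a Sox5 intron (chr6:143792788-143793201, 414 bp, score 157, top 46.3%), and the deletion list had a peak in the same merged region, starting at position 143793465. All 4 WT promoter peaks of the genes had a deletion peak.

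**Figure D5:**
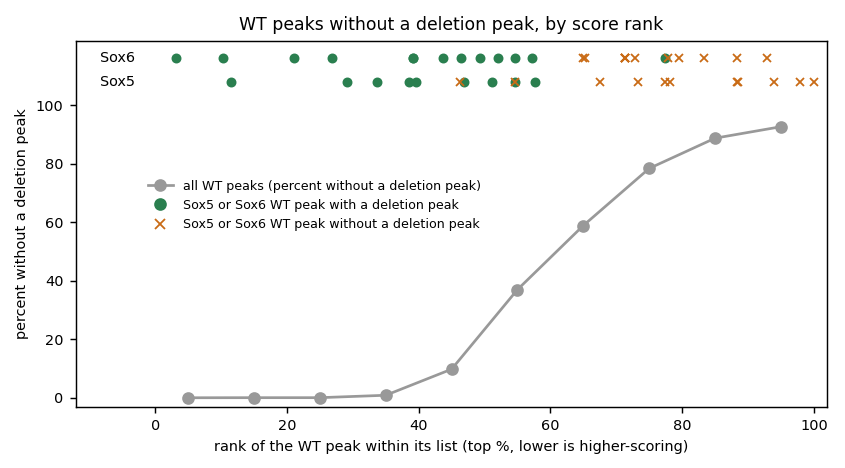
Percent of WT peaks without a deletion peak (y axis, grey line) by rank of the WT peak in its list (x axis, top percent, lower is stronger), with the Sox5 and Sox6 WT peaks above as circles (with a deletion peak) and crosses (without). The crosses begin at a rank of 46.3% in Sox5 and 65.0% in Sox6, and the genome-wide share rises from 0% to 92.6% along the axis.

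Where both lists had a peak, fold enrichment over the local background was lower in the deletion list at 9 of 9 WT peaks of Sox5 and 13 of 13 of Sox6. The median log2 ratio of deletion to WT was −0.48 at Sox5 and −0.59 at Sox6. Over all 20968 shared WT peaks it was −0.52, and 93.9% were lower. The Sox5 promoter had a fold enrichment of 26.2 in WT and 13.6 in the deletion list (log2 ratio −0.95). The outer Sox6 promoters had 35.1 and 26.3 (−0.42) and 11.8 and 5.42 (−1.12), and the log2 ratio at the inner Sox6 promoter was −0.90. The smallest difference at either gene was at the Sox5 region at 135 kb, with 6.55 in WT and 6.05 in the deletion list (−0.11), and the largest at the Sox6 intron peak at 372 kb, with 9.43 and 4.18 (−1.17). With 1 library a genotype and no known depth, a difference of genotype cannot be told apart from a difference between libraries.

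Related genes and shared targets were read from their promoters, in lists chosen with earlier results known. Sox13, the third SoxD gene, had a promoter peak in replicate 2, WT, the deletion list, H3K4me2 and fibroblasts, and none in replicate 1. Of the 3 SoxE genes, Sox9 was marked in replicate 2, WT, the deletion list, H3K4me2 and fibroblasts, Sox8 in replicate 2, H3K4me2 and fibroblasts, and Sox10, a gene of neural crest and glia, in 0 lists. The SoxC genes Sox4, Sox11 and Sox12 were all marked in replicate 2, WT, the deletion list and fibroblasts.

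Of 12 cartilage genes known as targets of the Sox trio, 11 had a promoter peak in replicate 2, WT and the deletion list, against 45.7%, 49.6% and 46.8% of protein-coding genes. Replicate 1 and H3K4me2 marked 9 each, against 44.3% and 65.7%, and both lacked Col2a1 and Col11a1, which encode cartilage collagens. Fibroblasts marked 0 of 12, against 47.3%. Matn1, a cartilage matrix protein, was marked in 0 lists. The 11 genes with a WT peak and none in fibroblasts are compared with 4.53% of protein-coding genes of that pattern, and WT and the deletion list marked the same 11 genes. For Col2a1 and Col11a1, which replicate 1 and H3K4me2 also lacked, an absent fibroblast peak cannot be told apart from the gap those lists share. The other 9 genes had a peak in replicate 1 and H3K4me2. Col1a1 had that pattern and no fibroblast peak too, although the study reports peaks at Col1a1 in dermal fibroblasts. Whether the fibroblast list missed marks at these 9 genes was not tested, and the 4.53% was not limited in this way.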

How the data were processed

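H3K27ac and H3K4me2 ChIP-Seq peak lists of the authors were taken unchanged. The methods state that reads were trimmed with fastp, aligned to mm9 with Bowtie2 2.4.4, and peaks called with MACS2 2.2.4 against input. The deposited score of the lists without fold enrichment starts at 50, and the narrowPeak lists hold the deposited fold enrichment (a ratio to local background) and −log10 q at the summit. Scores were used only to rank peaks within a list. Read depth is unknown, and the input library was not analysed here.

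Replicate 2 was on GRCm38 by its promoters although the methods name mm9. It was placed by distance from the TSS, since 20 promoter sequences at Sox5 and 15 at Sox6 (RefSeq, GRCm38) matched mm9 at a constant offset. The other 5 lists were used with GENCODE vM1 on mm9. Overlap was at least 1 bp on chromosomes 1 to 19 and X. Overlap counts were checked with bedtools 2.31.1 and tested on simulated data. Intervals are Clopper-Pearson at 95% and treat peaks as independent. With at most 2 libraries a group, no test was possible. Peaks named were the promoter peaks, the 3 strongest per list and gene, WT peaks of the higher-scoring 50% without a deletion peak, deletion peaks without a WT peak, the 3 strongest replicate 1 peaks without a fibroblast peak that overlap WT and H3K4me2, and fibroblast peaks without a chondrocyte peak. Further peaks, the segments and the largest and smallest fold differences were chosen after their values were seen. The members and gene lists were chosen with earlier results of these data known. Python 3.11.15 was used. Alternatives were the stronger 50% of every list, reciprocal overlap, lists cut to the same length, merging of near peaks, other flanks and promoter windows, and replacing replicate 1.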

Additional observations from a re-analysis of the deposited data

How the results depend on the processing

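Of 112 alternative values, 84 stayed within their interval or within 1.5 times the count, and 28 moved. The share of replicate 1 peaks without a fibroblast peak was 100% at Sox5 with the higher-scoring 50% of each list, with equal numbers of peaks and with replicate 2 in place of replicate 1, and 100% at Sox6 with a flank of 50 kb, where the Sox6 fibroblast count fell to 0. With WT in place of replicate 1, an alternative chosen after seeing the data, it was 95% and 96%. With equal numbers of peaks, the Sox5 fibroblast peak had no replicate 1 peak (100%) and 30.8% of Sox5 WT peaks had no deletion peak. With 50% reciprocal overlap, 45.5% of Sox5 and 30.8% of Sox6 deletion peaks had no WT peak. Under reciprocal overlap, the higher-scoring 50% and equal numbers, replicate 1 peaks with an H3K4me2 peak were 50%, 42.9% and 31.3% at Sox5 and 65.2%, 83.3% and 52.2% at Sox6. Using only the higher-scoring 50% left, for replicate 1, replicate 2, WT, the deletion list and H3K4me2, 7, 4, 7, 2 and 12 peaks at Sox5 and 12, 4, 9, 4 and 20 at Sox6, and 0 fibroblast peaks at Sox5. With a promoter window of 2 kb, replicate 2 had 4 promoter peaks at Sox5 and replicate 1 had 2 at Sox6. Fewer peaks enter by construction under these filters, and other causes were not tested. No paired analysis was possible because the result comes from no test and the groups compared share fewer than 2 replicate numbers. Unknown depth limits every absent peak: it was not detected in that list, not shown to be absent.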
